A study of Ogataea parapolymorpha with 16 samples.

Results

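The genes described here are the 78 genes of the yeast Ogataea parapolymorpha whose transcript level was higher in retentostat cultures than in any other culture, in both strains studied. A retentostat is a glucose-limited culture fed with fresh medium like a chemostat, but with the cells held back by a filter, so that the glucose available per cell shrinks and growth slows to near zero. The members were chosen from the measured values. After the 16 samples were scaled to each other, the log2 of a group mean (plus 1) in retentostat cultures had to exceed the highest of the 3 other culture types by at least 1 (a doubling) in each strain, among the 5232 genes with a group mean of at least 10 FPKM (a fragment count scaled to the gene and to the depth of the library). Of the 5408 genes in the files, 78 met this rule, while 159 met it in IMD010 and 92 in CBS11895, and 2 genes were left out by the rule in advance. The higher level in retentostat cultures is therefore the definition of the set and is given as a description, with no test.

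Near-zero growth is a state in which most of the energy from the sugar goes to keeping cells alive, called maintenance, and little of it to new biomass. In Saccharomyces cerevisiae, slow and nutrient-limited growth is known for higher expression of stress-protective genes, of transporters for other nutrients and of genes that remodel the cell wall. IMD010 lacks a working complex I, the proton-pumping NADH dehydrogenase of the respiratory chain. It carries a frameshift in NUBM (HPODL_04625), the gene of the subunit through which electrons from NADH enter the enzyme, and is a single isolate derived from the wild type CBS11895.

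RNA was sequenced from IMD010 (complex I mutant) and CBS11895 (wild type) in 4 cultures: retentostat at a specific growth rate of 0.001 per h, chemostat at 0.025 and at 0.1 per h, and batch at 0.37 per h. Each of the 8 groups had 2 independent cultures, all on glucose at 30 °C and pH 5.0. Retentostat medium held 5 g/L glucose after a chemostat phase with 10 g/L, 1.5 times the trace elements and 2 times the vitamins, and its pH was held with 10% NH4OH. The other cultures had 7.5 g/L glucose and 2 M KOH, and the working volume was 1.0 L at 0.025 per h and 1.4 L elsewhere. Growth rate, medium, titrant, time in culture and cell density changed together between the retentostat and the other cultures and cannot be told apart.

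The reads recovered from the values ran from 16522183 to 20898682 per sample. NUBM itself, whose mutation changes the frame and need not change the amount of transcript, had 1449 to 4017 FPKM in the IMD010 cultures and 1743 to 3039 FPKM in the CBS11895 cultures. The 2 IMD010 chemostat cultures at 0.1 per h stood apart from each other, where the log2 differences between the cultures had an SD of 0.889 over all genes, against 0.135 to 0.282 in the other 7 groups. Among the 78 members, 15 differed by more than 1 log2 between these 2 cultures, against 25.6% of all genes tested. Values below are TMM-normalized FPKM, compared between cultures and not between genes, since the number that the authors divided by was not the annotated gene length. Replicates are given in the order of their culture number. Levels per cell cannot be told apart from the share of cells that carry a transcript in RNA from whole cultures.

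Over the 78 members, the median level in retentostat cultures was 4.13 times that of the highest other group in IMD010 (range 2.1 to 359) and 3.32 times in CBS11895 (range 2.08 to 22.5). Both retentostat cultures lay above all 6 other cultures of the strain for every member, in each strain. Among all 5233 genes tested the same held in IMD010 for 20.4%, in CBS11895 for 14.8% and in both strains for 11%, and since the rule used these values nothing is read from the comparison. The smaller of the 2 margins ran from 1.01 to 4.27, with quartiles of 1.21 and 2.04. The members did not share 1 level elsewhere. The highest other group was the chemostat at 0.025 per h for 47 members in IMD010 and for 60 in CBS11895, against 32.2% and 36.1% of all genes tested. It was the chemostat at 0.1 per h for 26 and 5, against 33.4% and 17.3%, and batch for 5 and 13, against 34.4% and 46.6%. Group means fell in the order of growth rate over all 4 cultures for 32 members in both strains, against 5.85% of all genes tested. The rule contributes to this count, since it sets the retentostat highest.

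**Figure D1:**
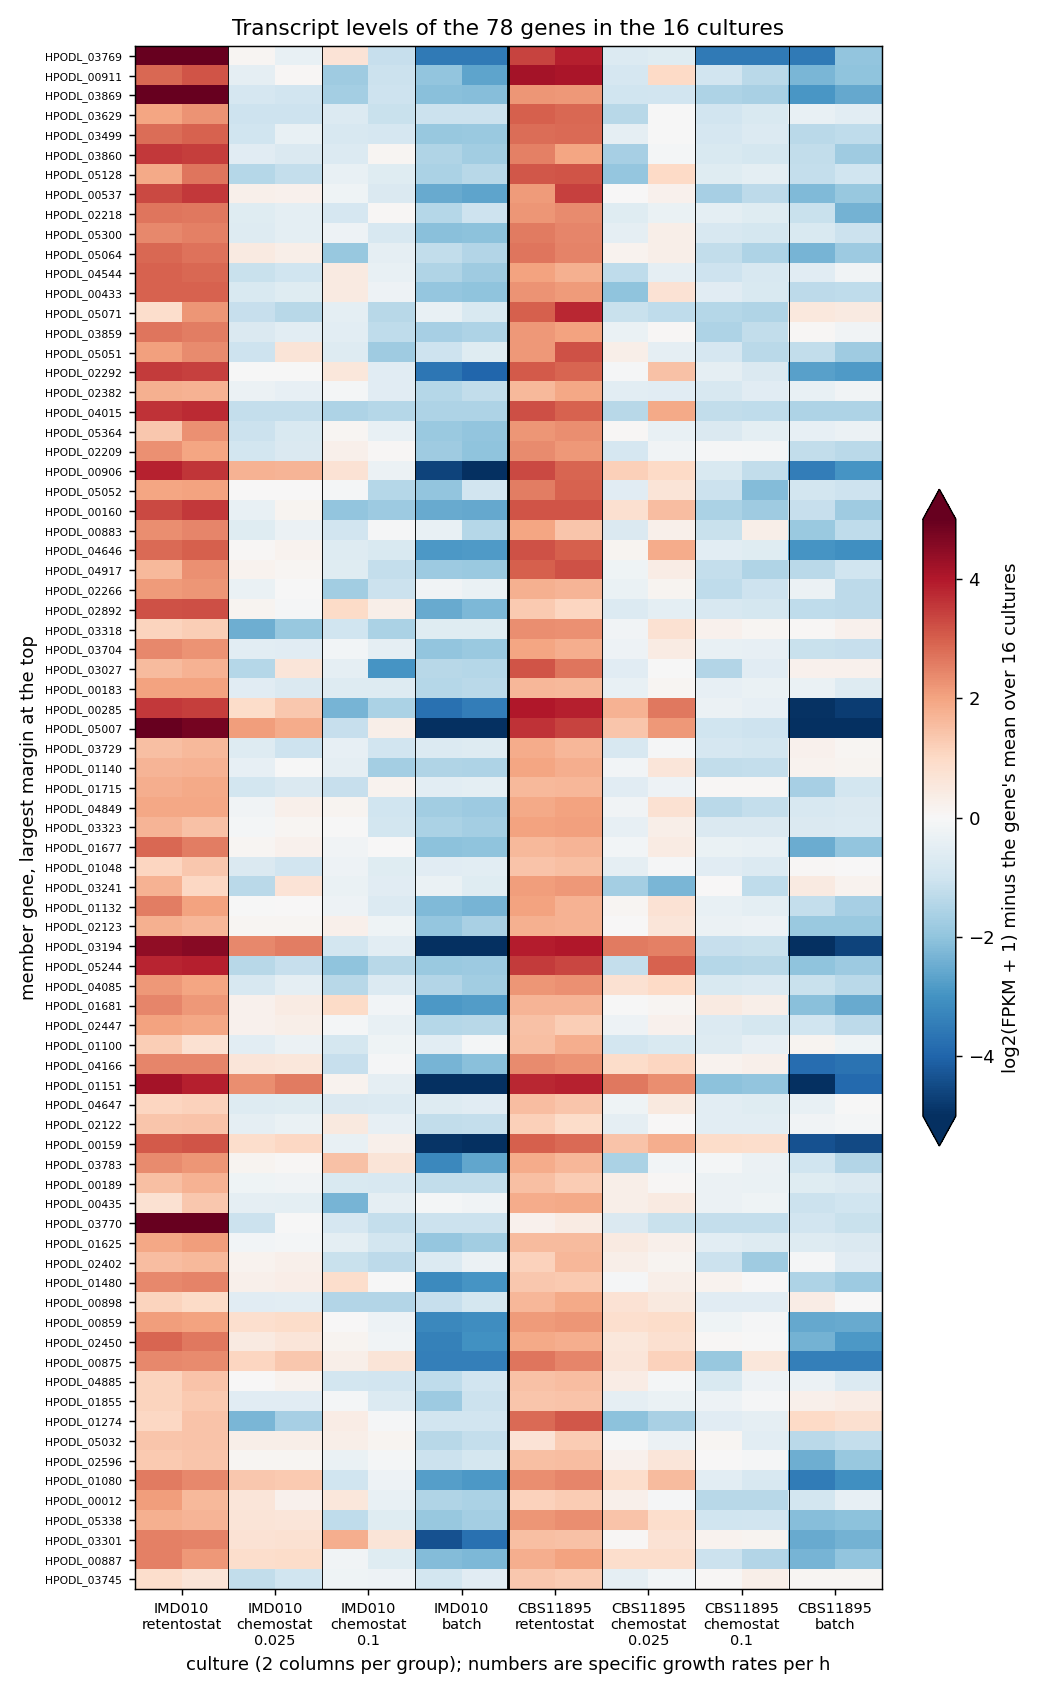
Each row is 1 of the 78 genes and each column 1 of the 16 cultures, and the color is the log2(FPKM + 1) minus the mean of the gene over the 16 cultures. IMD010 is on the left and CBS11895 on the right, each from slow to fast growth. Within each strain every gene is highest in the retentostat columns, which is how the genes were chosen, while the other columns differ from gene to gene.

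Only 27 of the 78 members had a product name in the annotation used here. Of these, 17 names gave a function and 10 read hypothetical protein, a share of 37% against 31.3% of the genes with a name. The other 51 members are given by locus tag alone. In 19 lists formed from words in product names, 5 held a member and 14 held none. Only the 2110 genes with a name could enter a list, and 27 of them were members, so few members could fall into any list. Lists without a member were vacuolar and autophagic degradation (13 genes tested), ubiquitin and proteasome (40), chaperones and heat shock proteins (13), oxidative stress defence (11), methanol metabolism (1), glyoxylate cycle and gluconeogenesis (4), trehalose and glycogen (3), sugar transport and use (24), iron, copper and zinc (13), lipases and lipid stores (15), cell wall and secreted proteins (46), transcription factors (33), ribosome and its biogenesis (94) and the mitochondrial respiratory chain (23). The list of amino acid and nitrogen uptake and catabolism held 4 members of 52 genes, and the lists of peroxisome and carnitine shuttle (17), of sporulation and mating (7) and of protein kinases and phosphatases (35) held 1 each. The list of proteins with no assigned function held 10 of 699. The lists go by words in the names, and the cell wall list did not catch the members named UTH1, EPD1 and alpha 1,6-mannosyltransferase, so that a list without a member does not show that such genes are absent from the set.

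The 4 members of the nitrogen list were a predicted acetylornithine deacetylase, a predicted ammonia exporter and permeases for proline and lysine. HPODL_00911 (chromosome IV, bases 34498 to 35733) is named for an enzyme that in bacteria releases ornithine on the path to arginine. In IMD010 it had 141 and 174 FPKM in retentostat cultures, 13.4 and 19.5 FPKM at 0.025 per h, 4.79 and 8.34 FPKM at 0.1 per h and 4.03 and 2.15 FPKM in batch. In CBS11895 the values were 353 and 328 FPKM in retentostat cultures, 9.89 and 38.5 FPKM at 0.025 per h, 9.05 and 6.69 FPKM at 0.1 per h and 3.05 and 3.85 FPKM in batch. Its retentostat level was thus 9.59 times the highest other group mean in IMD010 and 14.1 times in CBS11895. The strains did not differ past the threshold in retentostat cultures, with a log2 fold change of -1.12 ± 0.48 (SE) and an FDR of 0.298 in limma.

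HPODL_00537 (chromosome III, bases 658889 to 659656) is annotated as a putative transmembrane protein for the export of ammonia, the family that in S. cerevisiae moves ammonium out of cells. It had 442 and 519.5 FPKM in IMD010 retentostats against 52.4 and 50.6 FPKM at 0.025 per h, 37.8 and 26.3 FPKM at 0.1 per h and 6.77 and 6.24 FPKM in batch. CBS11895 retentostats had 195 and 468 FPKM, against 43.7 and 50.3 FPKM at 0.025 per h, 13.2 and 16.8 FPKM at 0.1 per h and 8.68 and 11 FPKM in batch. It was the only member whose 2 CBS11895 retentostat cultures differed by more than 1 log2. The pH of the retentostats was held with ammonium hydroxide and that of the other cultures with KOH, and the part of this in the ammonia-related transcripts was not tested.

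HPODL_01140 (chromosome VI, bases 87503 to 89161) is named after put4, the proline permease of S. cerevisiae. In IMD010 its level was 3309 and 3323 FPKM in retentostats, 762 and 981 FPKM at 0.025 per h, 744 and 305 FPKM at 0.1 per h and 354 and 349 FPKM in batch. In CBS11895 it was 3983 and 3593 FPKM in retentostats, 910.5 and 1527 FPKM at 0.025 per h, 431 and 435 FPKM at 0.1 per h and 1138 and 1117 FPKM in batch, so that the chemostat at 0.1 per h was the lowest group of the wild type. The level in the wild type was lower at 0.1 per h than in batch, with a log2 fold change of -1.38 ± 0.34 (SE) and an FDR of 0.00346. The lysine-specific permease HPODL_00012 (chromosome I, bases 22711 to 24309) had 183 and 135 FPKM in IMD010 and 96.2 and 103 FPKM in CBS11895 retentostats, against at most 64.6 FPKM in any other culture of IMD010 and 50.8 FPKM in any other of CBS11895. Over the whole list of 52 genes, 4 were higher and 20 lower at 0.025 than at 0.1 per h in IMD010, and 10 were higher and 9 lower in CBS11895, beside 23.9% and 26.5% of all genes tested in IMD010 and 13.5% and 16.3% in CBS11895.

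HPODL_00433 (chromosome III, bases 464651 to 465778) and HPODL_01681 (chromosome VI, bases 959922 to 961535) carry the names of cell surface proteins of other yeasts, UTH1, a member of the SUN family of S. cerevisiae, and EPD1, a protein related to the enzymes that remodel cell wall glucan. HPODL_00433 had 24219.8 and 23972 FPKM in IMD010 and 14971 and 13666 FPKM in CBS11895 retentostats. The next group down in IMD010 was 0.1 per h with 4208 and 2584 FPKM, while the CBS11895 cultures at 0.025 per h had 778 and 5138 FPKM and did not agree. HPODL_01681 had 6605 and 5369 FPKM in IMD010 and 3919 and 3959.7 FPKM in CBS11895 retentostats. Its chemostat values were 1386 and 1625 FPKM at 0.025 and 2346 and 1099 FPKM at 0.1 per h in IMD010, and 1181 and 1296 FPKM at 0.025 and 1653 and 1475 FPKM at 0.1 per h in CBS11895. Batch cultures had 166 and 175 FPKM in IMD010 and 283 and 209 FPKM in CBS11895, the lowest group of each strain. The alpha 1,6-mannosyltransferase HPODL_01625 (chromosome VI, bases 872688 to 873776), of an enzyme class that extends the mannose chains of glycoproteins, had 6567 and 7152 FPKM in IMD010 and 5087 and 5098 FPKM in CBS11895 retentostats, 4.4 and 2.33 times the next group.

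HPODL_00285 (chromosome III, bases 222632 to 223363), named after the stress protein DDR48 of S. cerevisiae, had 1894 and 1801 FPKM in retentostats of IMD010, 306 and 416 FPKM at 0.025 per h, 31.6 and 54.4 FPKM at 0.1 per h and 11.5 and 14 FPKM in batch. In CBS11895 it had 2624 and 2433 FPKM in retentostats, 548 and 1017 FPKM at 0.025 per h, 133 and 122 FPKM at 0.1 per h and 4.41 and 5.14 FPKM in batch. The values of successive growth rates did not overlap in either strain, and both steps below the retentostat passed the test. The step of 0.025 over 0.1 per h had a log2 fold change of 3.07 ± 0.29 (SE) and an FDR of 6.71e-05 in IMD010 and a log2 fold change of 2.54 ± 0.29 (SE) and an FDR of 0.000169 in CBS11895. The step of 0.1 per h over batch had a log2 fold change of 1.63 ± 0.29 (SE) and an FDR of 0.000945 in IMD010 and a log2 fold change of 4.48 ± 0.29 (SE) and an FDR of 4.52e-07 in CBS11895.

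A member linked to NAD+ and one linked to acetyl groups were both called higher in the retentostats of IMD010 than in those of CBS11895, and both calls were lost without any 1 of the 4 retentostat cultures (FDR 0.0538 to 0.157 for HPODL_01677 and 0.157 to 0.22 for HPODL_01480). HPODL_01677 (chromosome VI, bases 951976 to 952671), annotated to the pathway that recycles nicotinamide into NAD+, had 1112 and 909.8 FPKM in IMD010 and 467 and 493 FPKM in CBS11895 retentostats, a log2 fold change of 1.07 ± 0.20 (SE) and an FDR of 0.0153. HPODL_01480 (chromosome VI, bases 657192 to 659372), a carnitine acetyltransferase that by its name moves acetyl groups between acetyl-CoA and carnitine at the mitochondrion, had 8328 and 8734 FPKM in IMD010 and 4002 and 3906 FPKM in CBS11895 retentostats, a log2 fold change of 1.11 ± 0.24 (SE) and an FDR of 0.0288. In chemostats the cultures of the strains overlapped, with 1843 and 1976 FPKM in IMD010 and 1511 and 1924 FPKM in CBS11895 at 0.025 per h. In batch HPODL_01480 was lower in IMD010, with 173 and 204 FPKM against 541 and 441 FPKM in CBS11895 (a log2 fold change of -1.37 ± 0.24 (SE) and an FDR of 0.000606). The difference between the strains in the rise over 0.025 per h did not pass the threshold for either gene, with a log2 fold change of 1.04 ± 0.29 (SE) and an FDR of 0.196 for HPODL_01677 and a log2 fold change of 0.95 ± 0.34 (SE) and an FDR of 0.402 for HPODL_01480.

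Of the remaining members with a named function, HPODL_00159 (chromosome III, bases 7417 to 8265) and HPODL_00160 (chromosome III, bases 8988 to 10688) lie next to each other and are named sorbose reductase SOU1, which acts on sugars and polyols in Candida albicans, and tannase, an enzyme that splits ester bonds of plant tannins. HPODL_00159 had 1873 and 1971 FPKM in IMD010 and 1766 and 1585 FPKM in CBS11895 retentostats, while batch had 6.52 and 5.84 FPKM in IMD010 and 9.96 and 8.92 FPKM in CBS11895. HPODL_00160 had 1392 and 1598 FPKM in IMD010 and 1238 and 1238 FPKM in CBS11895 retentostats, against 107 and 151 FPKM in IMD010 and 243 and 401 FPKM in CBS11895 at 0.025 per h. In the chemostat at 0.1 per h HPODL_00160 had 34.9 and 38.8 FPKM in IMD010 and 45.3 and 39.3 FPKM in CBS11895, and HPODL_00159 had 173 and 270.1 FPKM in IMD010 and 431 and 416 FPKM in CBS11895. HPODL_00183, named after STE6, the exporter of the mating pheromone a-factor in S. cerevisiae, had 358 and 362 FPKM in IMD010 and 281 and 273 FPKM in CBS11895 retentostats and between 32.4 and 95.7 FPKM in all 12 other cultures. The mitogen-activated protein kinase HPODL_01048, of a class that relays signals from the cell surface, had 766 and 916 FPKM in IMD010 and 976 and 1026 FPKM in CBS11895 retentostats, 3.1 and 2.69 times the next group. Chosen after their values were seen, the multidrug transporter HPODL_00189 (margins 1.80 and 1.22 in IMD010 and CBS11895) and the aminotransferase HPODL_00859 (1.17 and 1.29) complete the named members with HPODL_00435, a helicase of the spliceosome (BRR2, 1.21 and 1.49).

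**Figure D2:**
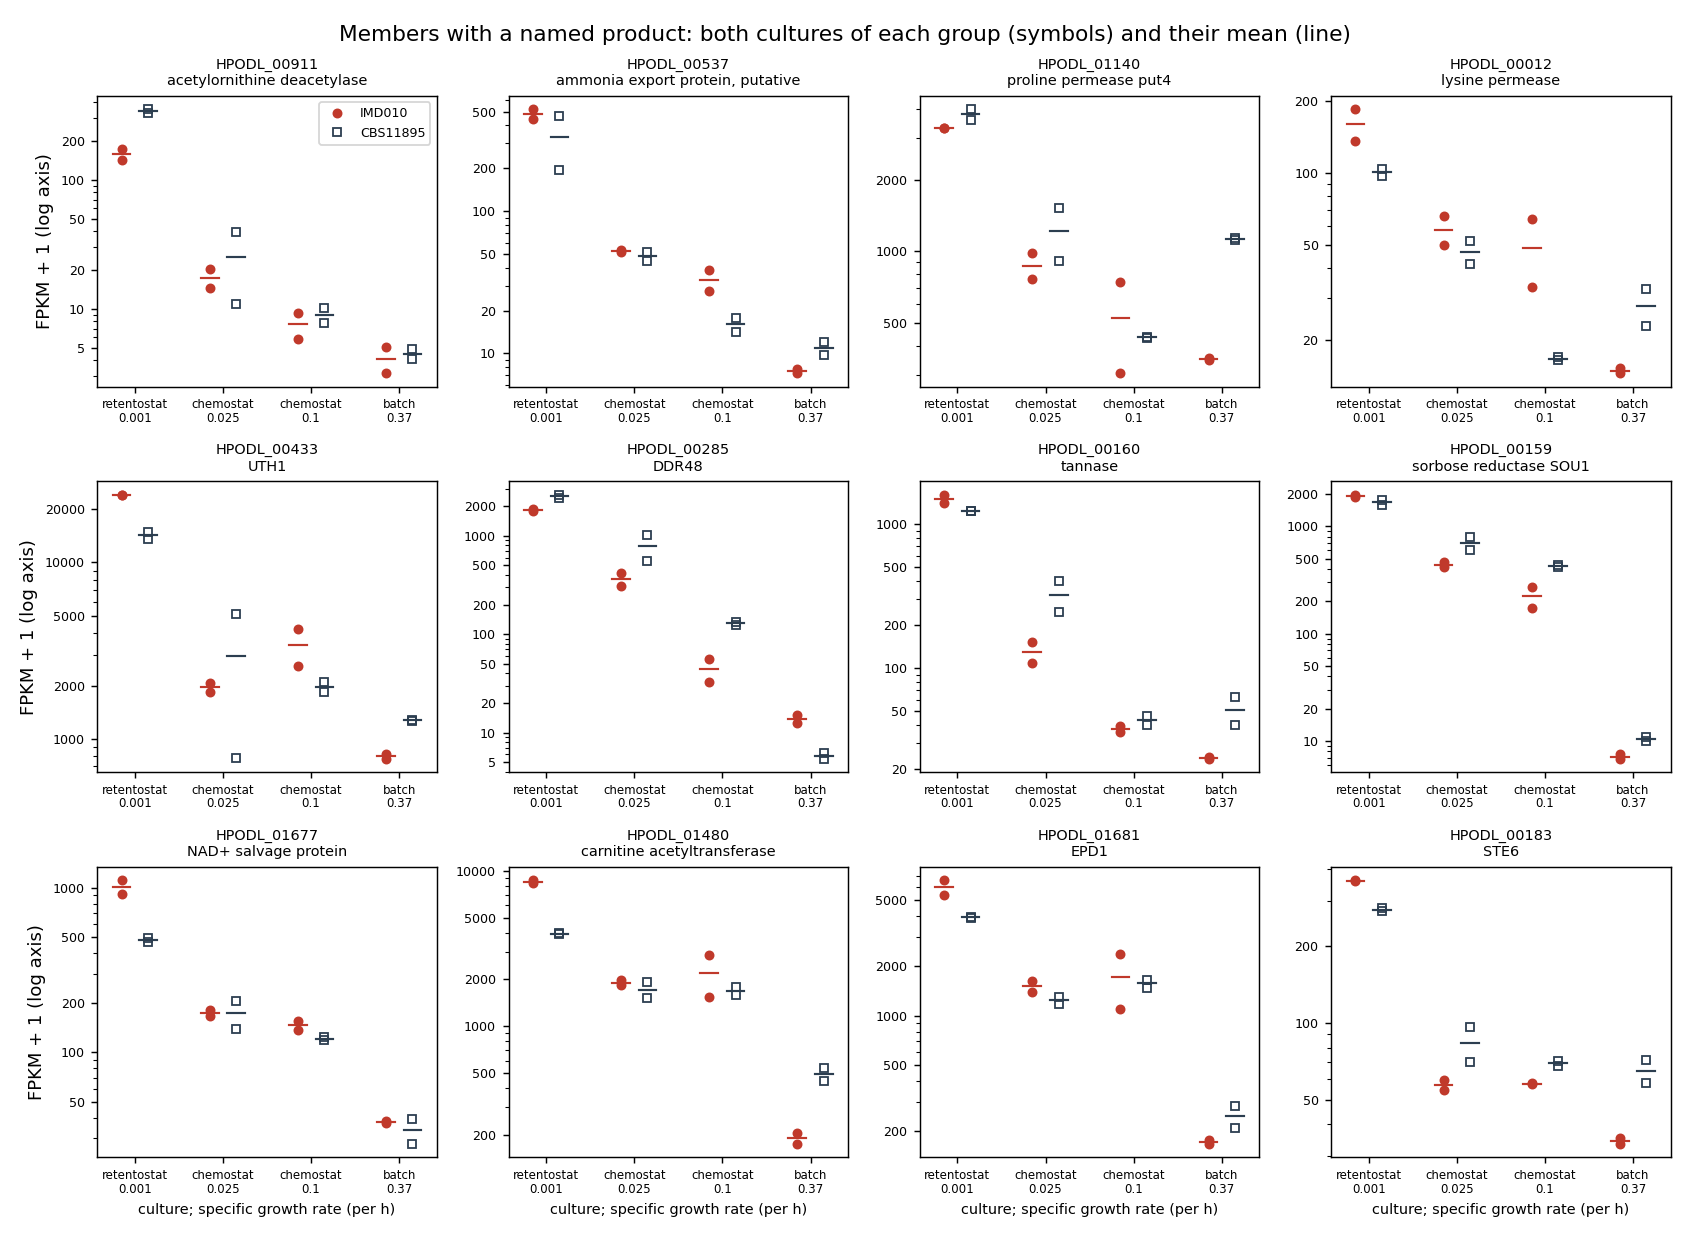
FPKM plus 1 on a log axis for 12 members with a named product, with IMD010 as filled circles and CBS11895 as open squares, both cultures of each group and their mean as a line. The axis runs from the retentostat (0.001 per h) to batch (0.37 per h). HPODL_00285 steps down with each faster culture, with at least 1801 FPKM in IMD010 retentostats and at most 14 in IMD010 batch, while HPODL_00183 is between 32.4 and 95.7 FPKM in all cultures other than the retentostats.

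Most of the largest margins belonged to genes without a name here. HPODL_03629 (chromosome IV, bases 1057901 to 1059073) had 1219 and 1499 FPKM in IMD010 and 2457 and 2294 FPKM in CBS11895 retentostats and stayed between 119 and 305 FPKM in the 12 other cultures, with no order by growth rate. HPODL_03499 (chromosome IV, bases 848169 to 848726) had 28.4 and 32.1 FPKM in IMD010 and 28.5 and 29.4 FPKM in CBS11895 retentostats, with at most 3.17 FPKM elsewhere. HPODL_02218 (chromosome I, bases 673479 to 674051) had 42.6 and 41.5 FPKM in IMD010 and 30.8 and 34.6 FPKM in CBS11895 retentostats, with at most 6.14 FPKM elsewhere. Over the highest other group these were 8.13, 17.5 and 9.33 times in IMD010 and 10.3, 10.9 and 8.15 times in CBS11895. HPODL_05300 (chromosome VI, bases 837691 to 840531) had 624 and 674 FPKM in IMD010 and 709 and 643 FPKM in CBS11895 retentostats, and HPODL_05064 (chromosome II, bases 976591 to 977673) had 3168 and 2849 FPKM in IMD010 and 2772 and 2404 FPKM in CBS11895 retentostats. HPODL_04544 (chromosome II, bases 40198 to 41946) was 7.21 times its highest other group in IMD010 retentostats and 4.88 times in CBS11895 retentostats. HPODL_03860 (chromosome V, bases 156478 to 157959) had 660.5 and 631 FPKM in IMD010 and 324 and 222 FPKM in CBS11895 retentostats. HPODL_05128 (chromosome II, bases 460978 to 461229), a gene of 252 bp, had 117 and 201 FPKM in IMD010 and 269 and 277 FPKM in CBS11895 retentostats. HPODL_03860 lies next to the member HPODL_03859 on chromosome V.

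Whether the members were already higher in slow than in faster chemostats was tested between 0.025 and 0.1 per h, since the rule used only the highest of these groups and not their order. In IMD010, 22 of the 78 members were higher at 0.025 per h and 7 lower at an FDR under 0.05, where 23.9% of all genes tested were higher and 26.5% lower. In CBS11895, 37 members were higher and 2 lower, against 13.5% and 16.3% of all genes tested. The median log2 fold change over the members was 0.32 in IMD010 and 0.67 in CBS11895, beside -0.01 over all genes tested in each strain. In both strains together, 22 members were higher at 0.025 per h, against 10.3% of all genes, 2 were lower, against 13.9%, and 34 members passed the test in neither strain, against 43.9%. The share of members higher in IMD010, 28.2%, was near the background, while that in CBS11895 was 47.4%. Without culture 2 of CBS11895 at 0.025 per h, 22 members were higher and 6 lower in that strain, and the difference between the strains in these shares was not tested. A fit with only the samples of the contrast called no member in IMD010 and 43 in CBS11895, where the count moved when either culture at 0.1 per h was left out. The share of all genes called in these fits is not given, so their counts are no result about the members.

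The largest changes between the chemostat rates were those of HPODL_01151, HPODL_03194 and HPODL_00285. HPODL_01151 (chromosome VI, bases 104164 to 107079) had 1063 and 1292 FPKM at 0.025 and 241 and 155 FPKM at 0.1 per h in IMD010 (log2 fold change of 2.59 ± 0.46 (SE) and an FDR of 0.00172), and 1330.5 and 1064 FPKM at 0.025 and 50.1 and 52.4 FPKM at 0.1 per h in CBS11895, a log2 fold change of 4.51 ± 0.46 (SE) and an FDR of 7.34e-05. HPODL_03194 (chromosome VII, bases 1427802 to 1428224) had 2067 and 2335 FPKM at 0.025 and 208 and 273 FPKM at 0.1 per h in IMD010, and 2399.7 and 2250.3 FPKM at 0.025 and 174 and 179 FPKM at 0.1 per h in CBS11895, with a log2 fold change of 3.20 ± 0.59 (SE) and an FDR of 0.00206 in IMD010 and a log2 fold change of 3.71 ± 0.59 (SE) and an FDR of 0.00105 in CBS11895. HPODL_03769 had 11.2 and 7.89 FPKM at 0.025 and 17.2 and 4.2 FPKM at 0.1 per h in IMD010, where it was not called. In CBS11895 it had 6.22 and 6.56 FPKM at 0.025 and 0 and 0 FPKM at 0.1 per h and passed the test, but at most 4 reads lay behind each of these values and no fold is given.

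HPODL_01274 ran the other way between the chemostats. It had 0.74 and 1.66 FPKM at 0.025 and 9.85 and 7.06 FPKM at 0.1 per h in IMD010, and 1.05 and 1.73 FPKM at 0.025 and 4.64 and 5.07 FPKM at 0.1 per h in CBS11895, while its retentostat level was 16.1 and 21.6 FPKM in IMD010 and 58.8 and 72.1 FPKM in CBS11895. It was lower at 0.025 per h in both strains, with a log2 fold change of -2.12 ± 0.23 (SE) and an FDR of 0.000149 in IMD010 and a log2 fold change of -1.31 ± 0.23 (SE) and an FDR of 0.00204 in CBS11895. HPODL_03745 was likewise lower at 0.025 per h in both strains (a log2 fold change of -0.90 ± 0.16 (SE) and an FDR of 0.00177 in IMD010 and a log2 fold change of -0.47 ± 0.16 (SE) and an FDR of 0.048 in CBS11895), although the CBS11895 call was lost with median-of-ratios scaling (FDR 0.0552), without CBS11895 culture 1 at 0.025 per h (FDR 0.29) and without either CBS11895 culture at 0.1 per h (FDR 0.0831 and 0.27). In IMD010 HPODL_04544 and HPODL_02209 were lower at 0.025 per h too, with a log2 fold change of -1.08 ± 0.29 (SE) and an FDR of 0.0128 for HPODL_04544 and a log2 fold change of -0.97 ± 0.20 (SE) and an FDR of 0.00402 for HPODL_02209. The call of HPODL_04544 was lost without either IMD010 culture at 0.025 per h (FDR 0.0732 and 0.0502) or without culture 1 at 0.1 per h (FDR 0.07).

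**Figure D3:**
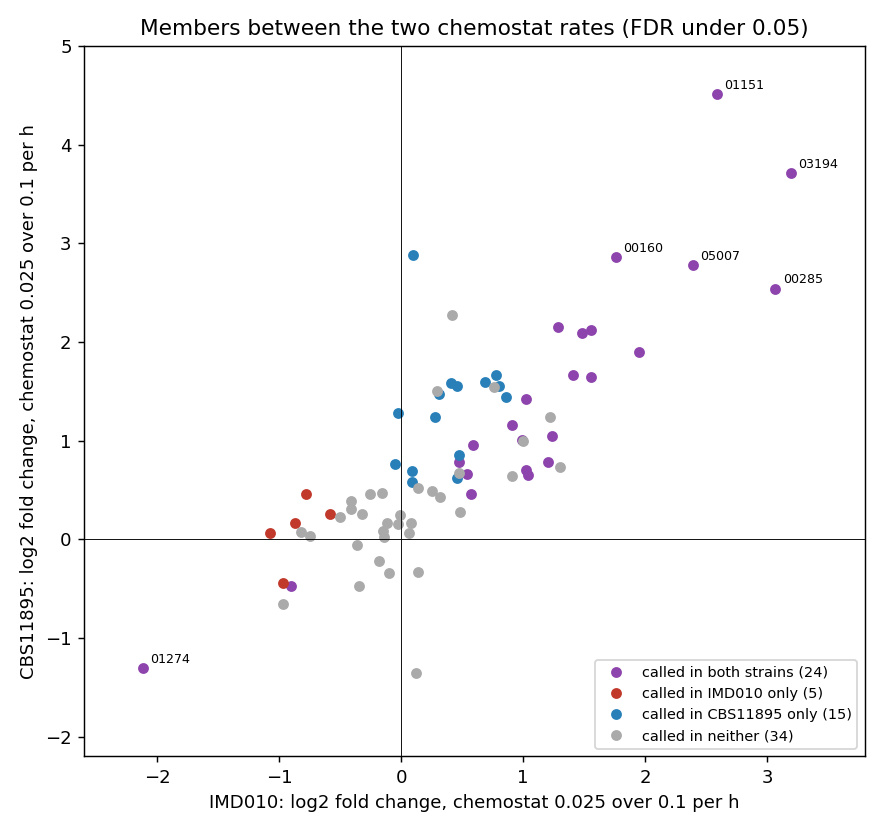
Each point is 1 of the 78 members, with the log2 fold change of chemostat 0.025 over 0.1 per h in IMD010 on the horizontal and in CBS11895 on the vertical axis, colored by the strains in which it passed an FDR under 0.05. Of the members, 24 passed in both strains, 5 only in IMD010, 15 only in CBS11895 and 34 in neither, and HPODL_01274 lies farthest to the lower left with -2.12 and -1.31.

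Between 0.1 per h and batch, glucose limitation against glucose excess, more members were higher in the chemostat than lower in each strain. In IMD010, 52 members were higher and 4 lower at 0.1 per h, against 27.7% and 24% of all genes tested. In CBS11895, 31 were higher and 10 lower, 39.7% and 12.8% of the members, against 36.1% and 37.9%. The share of members higher in CBS11895 was therefore near that of all genes, and the share lower was below it. The median log2 fold change of the members was 1.09 in IMD010 and 0.50 in CBS11895, beside -0.00 and -0.04 over all genes tested. A total of 29 members were higher at 0.1 per h in both strains, against 10.8% of all genes tested, 2 were lower in both, against 9.73%, and 16 were called in neither, against 9.4%. With only the samples of the contrast, 23 members were called in IMD010, all of them higher. The share of all genes in that fit is not given, so nothing is read from this count.

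Members passing the test at both steps in both strains, with levels higher at 0.025 than at 0.1 per h and higher at 0.1 per h than in batch, numbered 13, or 16.7%, against 2.96% of all genes tested. They were HPODL_00906, HPODL_00285, HPODL_05007, HPODL_03194, HPODL_04166, HPODL_01151, HPODL_00159, HPODL_00189, HPODL_00859, HPODL_02450, HPODL_01080, HPODL_05338 and HPODL_00887. HPODL_05007 (chromosome II, bases 882781 to 883044) had 7808 and 6564 FPKM in retentostats of IMD010, 1017 and 882 FPKM at 0.025 per h, 108 and 298 FPKM at 0.1 per h and 5.91 and 5.68 FPKM in batch. In CBS11895 it had 2973 and 2508 FPKM in retentostats, 629.6 and 1078 FPKM at 0.025 per h, 121 and 118 FPKM at 0.1 per h and 3.86 and 4.14 FPKM in batch. HPODL_00906 (chromosome IV, bases 27679 to 28722), a hypothetical protein, had 1419 and 1175 FPKM in IMD010 and 967 and 739 FPKM in CBS11895 retentostats, against 2.98 and 0 FPKM in IMD010 batch and 7.92 and 12 FPKM in CBS11895 batch. Among the steps from 0.1 per h to batch, HPODL_00159 had the largest log2 fold change of CBS11895, 5.35, and HPODL_00906 that of IMD010, 5.86, followed by HPODL_01151 (5.69) and HPODL_03301 (5.29) in IMD010.

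A few members were lower at 0.1 per h than in batch. HPODL_05071, HPODL_01274 and HPODL_01140 had the smallest values in CBS11895, with log2 fold changes of -1.94, -1.42 and -1.38. HPODL_00435, HPODL_02266 and HPODL_02402 had the smallest values in IMD010, with -1.24, -1.14 and -0.73. Of these, HPODL_00435 in IMD010 had 14.3 and 54.8 FPKM at 0.1 per h, cultures that did not agree, and 69.7 and 65.9 FPKM in batch.

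In retentostat cultures the strains differed for 11 of the 78 members at an FDR under 0.05. In IMD010, 7 members were higher and 4 lower, 8.97% and 5.13% of the members, against 1.82% and 1.78% of all genes tested. The median log2 fold change of the members was 0.19, beside 0.00 over all genes. No strain difference was called in any of the 4 cultures for 32 members, against 24.4% of all genes tested, nor in the 3 glucose-limited cultures for 58 members, against 93.4%. A fit without the IMD010 chemostat group at 0.1 per h called 16 members higher and 9 lower, against 11.7% and 12.3%. For the 67 members not called, log2 fold changes ran from -1.24 to 1.39, and the SE of a contrast over the members ran from 0.13 to 0.90, so that a missed threshold does not show equal levels. The 7 members higher include HPODL_03770, which passed the filter of 10 FPKM only through the IMD010 retentostat group, so nothing is read from its call. With any 1 of the 4 retentostat cultures left out, fewer members were called. The log2 fold change then ran from 5.20 to 5.40 for HPODL_03869 and from 1.88 to 2.12 for HPODL_02892. For HPODL_01274 it ran from -1.95 to -1.55.

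The rise over 0.025 per h was larger in IMD010 for 2 members and smaller for none in limma, against 0.172% and 0.153% of all genes tested. Among the 2 was HPODL_03770, from whose call nothing is read. At an unadjusted p under 0.05 the rise was larger for 19 and smaller for 5, against 3.11% and 5.33% of all genes. Without the IMD010 chemostat group at 0.1 per h, 19 were larger and 4 smaller, against 5.58% and 7.13%. The rule used the retentostat and 0.025 per h values of both strains, so nothing is read from the comparison of these counts with all genes. The number of calls also moved when culture 1 of the CBS11895 chemostats at 0.025 per h was left out.

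HPODL_03869 (chromosome V, bases 175013 to 175618) had the largest difference. It had 5749 and 5014 FPKM in IMD010 and 137 and 133 FPKM in CBS11895 retentostats, a log2 fold change of 5.30 ± 0.19 (SE) and an FDR of 2.91e-08. In the other 6 cultures of each strain it ran from 5.89 to 15.6 FPKM in IMD010 and from 3.03 to 14.5 FPKM in CBS11895. The rise over 0.025 per h differed between the strains by 5.24 on the log2 scale, with an SE of 0.27 and an FDR of 1.4e-06. In each strain both retentostat cultures lay above every other culture.

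At the left end of chromosome V, HPODL_03769 (chromosome V, bases 2010 to 3104) and its neighbour HPODL_03770 (chromosome V, bases 3692 to 4432) differed in the same direction. HPODL_03769 had 1641 and 1604 FPKM in IMD010 and 119 and 169 FPKM in CBS11895 retentostats, a log2 fold change of 3.51 ± 0.54 (SE) and an FDR of 0.0055. These rested on 873 to 897 reads in IMD010 and 69 to 90 reads in CBS11895, where any other culture had at most 10 reads in IMD010 and 4 in CBS11895. HPODL_03770 had 93.3 and 120.4 FPKM in IMD010 and 1.66 and 2.05 FPKM in CBS11895 retentostats, a log2 fold change of 5.23 ± 0.29 (SE) and an FDR of 1.37e-06, from 1584 to 2035 reads in IMD010 and 30 to 34 reads in CBS11895. HPODL_03770 passed the filter of 10 FPKM only through the IMD010 retentostat group, with a mean of 107 FPKM against at most 1.86 FPKM elsewhere. Its strain contrasts use this same group, so nothing is read from their FDR values. The rise over 0.025 per h differed between the strains by 4.86 for HPODL_03770 (an SE of 0.40 and an FDR of 0.000115) and by 3.01 for HPODL_03769 (an SE of 0.76 and an FDR of 0.144), and only the first passed the threshold. With a pseudocount of 0.1 in place of 1, the FDR of HPODL_03770 was 0.138 for this rise and that of HPODL_03769 in retentostat cultures was 0.105. Without culture 1 of either strain in retentostats, the FDR of HPODL_03769 was 0.0647 (CBS11895) and 0.0554 (IMD010).

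The neighbours of this pair did not meet the rule in CBS11895. HPODL_03768, the first protein-coding gene of the chromosome, had at least 77.2 FPKM in each IMD010 retentostat and 0.333 and 0.0607 FPKM in CBS11895 retentostats. HPODL_03771 had 381 and 390.0 FPKM in IMD010 and 0.983 and 1.79 FPKM in CBS11895, and HPODL_03772 had 70.3 and 94.8 FPKM in IMD010 and 1.92 and 1.26 FPKM in CBS11895 retentostats. HPODL_03773 had 29.6 and 38.6 FPKM in IMD010 and 6.5 and 4.34 FPKM in CBS11895 retentostats. The choice of these neighbours was made with their values in view. In CBS11895 the retentostat mean was 22.5 times the highest other group for HPODL_03769 and 8.19 times for HPODL_03770 (at most 8 reads in any other culture), while the log2 margins of the 4 neighbours ran from -0.83 to 0.43.

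**Figure D4:**
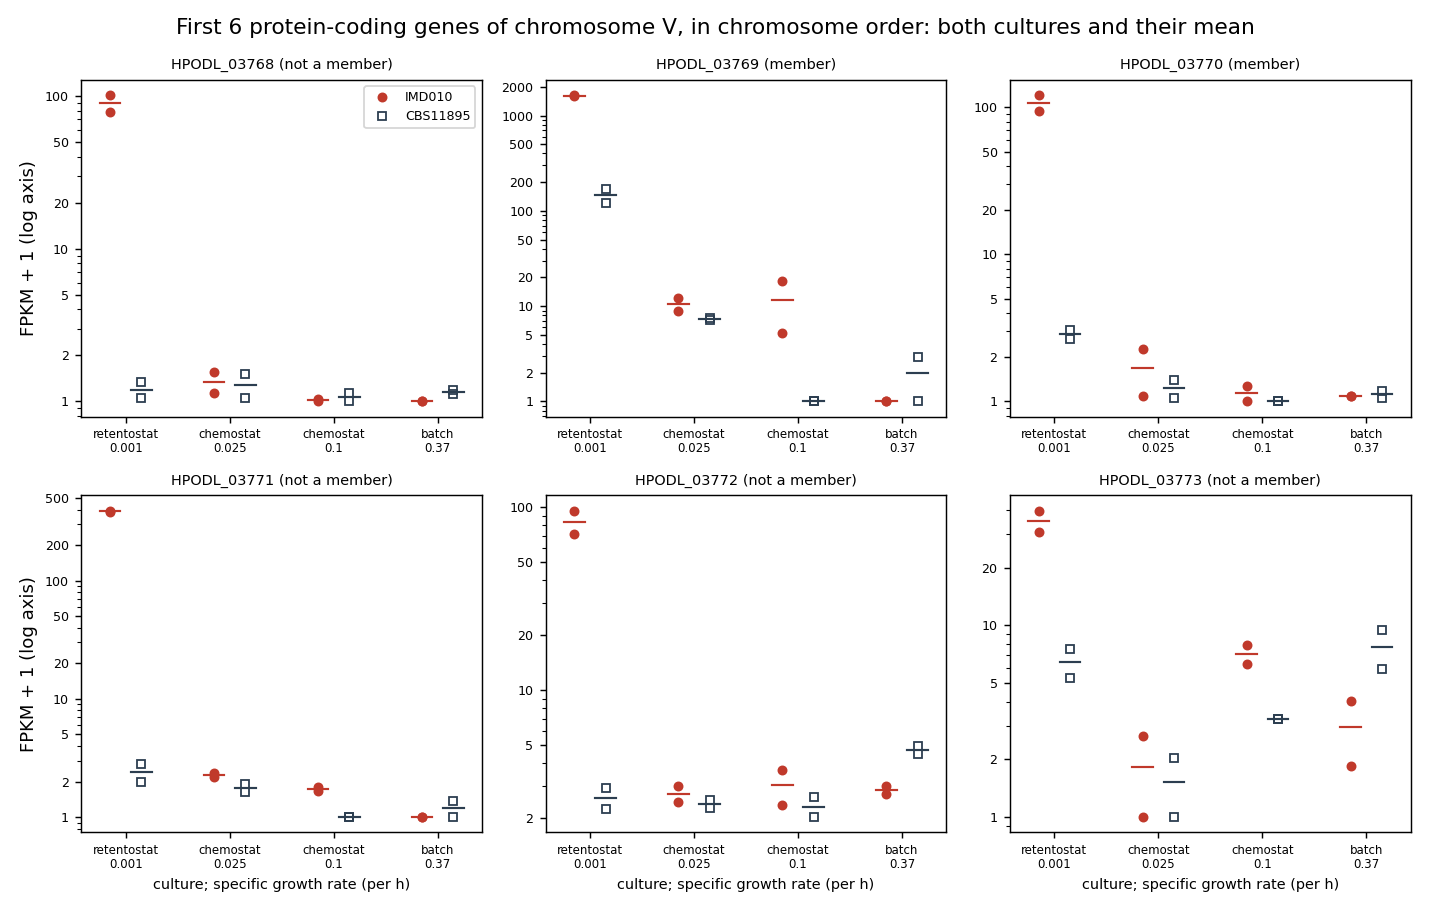
FPKM plus 1 on a log axis for the first 6 protein-coding genes of chromosome V in chromosome order, with IMD010 as filled circles and CBS11895 as open squares, both cultures and their mean as a line. All 6 are highest in the IMD010 retentostats (at least 29.6 FPKM per culture). In CBS11895 both retentostat cultures lie above the other cultures of the strain for the members HPODL_03769 (119 and 169 FPKM) and HPODL_03770 (1.66 and 2.05 FPKM). The same holds for HPODL_03771 (0.983 and 1.79 FPKM, from 3 to 5 reads), which is not a member. Heights are not comparable between panels.

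The other members higher in IMD010 in retentostat cultures were HPODL_02892 with 2045 and 2124 FPKM in IMD010 and 565 and 479.8 FPKM in CBS11895 (a log2 fold change of 2.00 ± 0.20 (SE) and an FDR of 0.000372), and HPODL_01677, HPODL_01480 and HPODL_02450 (0.90, lost without any 1 of the 4 cultures, FDR 0.0896 to 0.257). HPODL_02892 was also higher at 0.1 per h in IMD010 (log2 fold change of 1.48 ± 0.20 (SE) and an FDR of 0.00351, lost without either CBS11895 culture, with FDR 0.0512 and 0.0572) and lower in IMD010 in batch (a log2 fold change of -1.11 ± 0.20 (SE) and an FDR of 0.000672). The members lower in IMD010 were HPODL_05071, HPODL_01274, HPODL_04917 and HPODL_00898. HPODL_05071 (chromosome II, bases 988960 to 990573), the last annotated gene of chromosome II, had 23 and 59.2 FPKM in IMD010, cultures that differed by more than 1 log2, and 100.1 and 177 FPKM in CBS11895, a log2 fold change of -1.82 ± 0.41 (SE) and an FDR of 0.0306 that was lost without either CBS11895 culture or without IMD010 culture 1 (FDR 0.0666 to 0.341). HPODL_01274 had 16.1 and 21.6 FPKM in IMD010 and 58.8 and 72.1 FPKM in CBS11895, a log2 fold change of -1.75 ± 0.23 (SE) and an FDR of 0.00264. HPODL_04917 had 74.2 and 118 FPKM in IMD010 and 191 and 220.2 FPKM in CBS11895, a log2 fold change of -1.12 ± 0.27 (SE) and an FDR of 0.0465 that was lost without any 1 of the 4 retentostat cultures (FDR 0.0538 to 0.391). HPODL_00898, a hypothetical protein, was lower in IMD010 under all 4 conditions, with log2 fold changes of -0.76 in retentostats, -1.16 at 0.025 per h, -0.91 at 0.1 per h and -1.23 in batch. The retentostat call was lost without any 1 of the 4 cultures. No member, HPODL_00898 included, kept a strain call at 0.1 per h when either CBS11895 culture was left out. The same held with only the samples of the contrast.

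In chemostats at 0.025 per h no member was higher in IMD010 in limma (3 had an unadjusted p under 0.05) and 5 were lower, against 0.955% and 0.535% of all genes tested. The number of calls moved when any 1 of the cultures at 0.025 per h was left out. With the IMD010 chemostat group at 0.1 per h left out of the fit, 1 was higher and 18 lower, against 13.5% and 11.8%. HPODL_03318 had 45.2 and 65.5 FPKM in IMD010 and 223 and 428 FPKM in CBS11895 at 0.025 per h (log2 fold change of -2.48 ± 0.28 (SE) and an FDR of 0.00126). The gene was also lower in IMD010 at 0.1 per h, with 123 and 82.1 FPKM against 289 and 265 FPKM in CBS11895 (a log2 fold change of -1.45 ± 0.28 (SE) and an FDR of 0.0193), while the retentostat difference was -1.13. HPODL_04085, HPODL_00160, HPODL_00898 and HPODL_03745 were the other members lower in IMD010, with log2 fold changes of -1.48, -1.29, -1.16 and -0.82. With 1 culture at 0.025 per h left out, the value ran from -1.67 to -1.29 for HPODL_04085 and from -1.65 to -0.93 for HPODL_00160. Neither of these 2 kept its call each time. At 0.1 per h, 5 members were higher and 4 lower in IMD010, against 2.5% and 0.879% of all genes tested, and none was called in a fit of only the 4 samples of the contrast. The number of calls also moved when either CBS11895 culture or IMD010 culture 2 at 0.1 per h was left out. The members higher there included HPODL_01151 and HPODL_02892, with 1.90 and 1.48, the first at an FDR of 0.05 that was lost without IMD010 culture 1 (FDR 0.143) or either CBS11895 culture (FDR 0.233 and 0.28). HPODL_03769 was also called, with 17.2 and 4.2 FPKM in IMD010 (at most 10 reads) and 0 reads in CBS11895, and the members lowest in IMD010 were HPODL_00285, HPODL_03318 and HPODL_00159, with -1.59, -1.45 and -0.97.

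In batch, 4 members were higher and 36 lower in IMD010, 5.13% and 46.2%, against 30.6% and 42.9% of all genes tested. The share of members lower in IMD010 was therefore near that of all genes, and the share higher was below it. The median was -0.58 for the members and -0.21 for all genes tested. The members higher in IMD010 were HPODL_04166, HPODL_00285, HPODL_02596 and HPODL_03869, with log2 fold changes of 1.53, 1.25, 1.17 and 0.63. The lowest were HPODL_00906, HPODL_01274 and HPODL_01855, with -2.43, -1.86 and -1.76. HPODL_00906 had 2.98 and 0 FPKM in IMD010 batch and 7.92 and 12 FPKM in CBS11895 batch. Few reads lay behind these values, since the lowest number outside the retentostats was 0 in IMD010 and 2 in CBS11895. The size of its change is therefore uncertain. HPODL_01855 had 10.2 and 17.3 FPKM in IMD010 and 45.9 and 49 FPKM in CBS11895 batch.

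The CBS11895 chemostat cultures at 0.025 per h did not agree for part of the set. Culture 2 was above culture 1 for 60 of the 78 members, against 50.9% of all genes tested, and by more than 1 log2 for 11 members, against 0.764%. No member was higher by more than 1 log2 in culture 1. Over the members the SD of the log2 difference between the 2 cultures was 0.845, against 0.282 over all genes tested. The members with the largest differences, chosen after their values were seen, were HPODL_04015 and HPODL_05244, which lie next to each other on chromosome V, HPODL_05128 and HPODL_00433. HPODL_04015 had 0.109 and 9.82 FPKM and HPODL_05244 0.726 and 29.5 FPKM in the 2 CBS11895 cultures at 0.025 per h, against 26.5 and 21.7 FPKM and 44.2 and 39.1 FPKM in the retentostats of that strain. In IMD010 at 0.025 per h the pair had 0.295 and 0.276 FPKM and 0.515 and 0.79 FPKM. HPODL_05128 had 7.26 and 62.1 FPKM and HPODL_00433 778 and 5138 FPKM in the 2 CBS11895 cultures. The rule would take 76 genes without culture 1 and 81 without culture 2, of which 73 and 75 are among the 78 members.

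**Figure D5:**
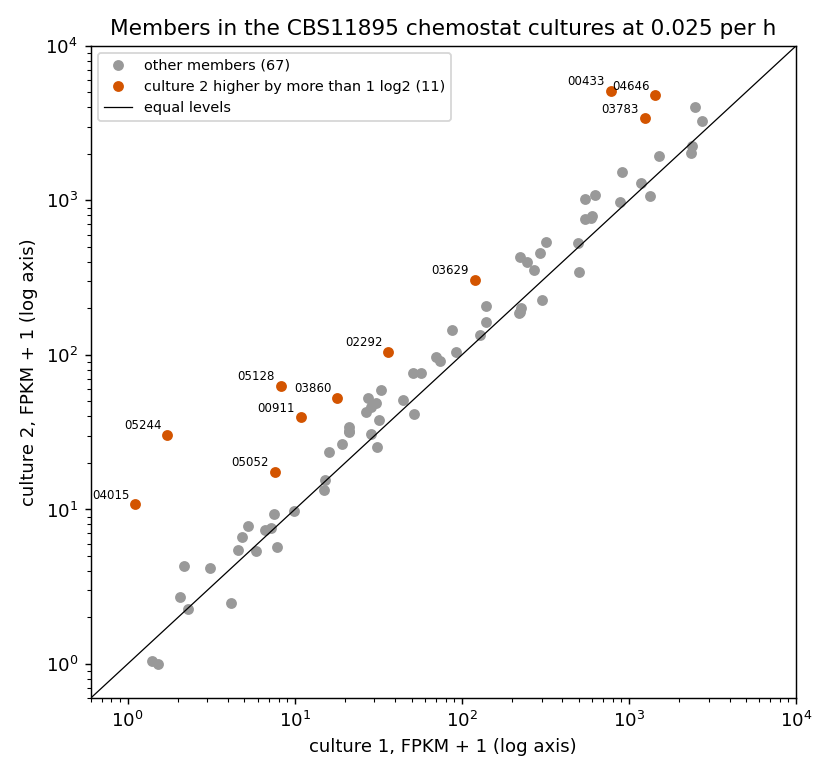
FPKM plus 1 of the 78 members in culture 1 (horizontal) and culture 2 (vertical) of the CBS11895 chemostats at 0.025 per h, on log axes, with the line of equal levels. The 11 genes in orange are higher by more than 1 log2 in culture 2, among them HPODL_00433 with 778 and 5138 FPKM, and no gene is as far on the other side.

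The members lay on all 7 chromosomes, from 8 on chromosome I to 13 on chromosomes II and IV. Within 50000 bases of the outermost annotated gene of a chromosome lay 24 of the 78 members (30.8%), against 7.03% of all genes tested, and within 20000 bases 12 members (15.4%), against 2.85%. This difference was not tested. Besides HPODL_03769 and HPODL_03770 on chromosome V, the members within 20000 bases were HPODL_00887, HPODL_00159, HPODL_00160 and HPODL_00883 on chromosome III, HPODL_05071 and HPODL_05064 on chromosome II, HPODL_03241 and HPODL_02402 on chromosome VII, HPODL_01100 on chromosome VI and HPODL_00898 on chromosome IV. A total of 14 members lay next to another member among the protein-coding genes, in 7 pairs and no longer run. The median annotated length was 1191 bp, against 1209 bp over all genes tested, with a range from 252 to 6985 bp. Only HPODL_02209 and HPODL_01132 overlapped another annotated gene, by 4 bases each.

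Calls were also limited to more than 2 on the log2 scale at an FDR under 0.001. Strain differences were then called for 2 members in retentostats (0.134% of all genes tested). None was called at 0.025 per h (0.0191%), at 0.1 per h (0.0764%) or in batch (7.15%), and 2 were called in the rise (0.0955%). HPODL_03770 was 1 of the 2 both times, and nothing is read from its calls. At these thresholds the step between 0.025 and 0.1 per h gave 3 members in IMD010 (0.955% of all genes tested) and 6 in CBS11895 (0.86%), and the step between 0.1 per h and batch 19 in IMD010 (4.49%) and 14 in CBS11895 (13.9%).

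The rule cut a continuous range. The members just inside were HPODL_03301, with a smaller margin of 1.035, HPODL_00887 with 1.021 and HPODL_03745 with 1.013. Just outside were HPODL_05279 with 0.995, HPODL_03643 with 0.984 and HPODL_04528 with 0.974. Few reads lay behind some members. In the culture with the fewest, HPODL_03027 had 9 reads in an IMD010 retentostat, HPODL_03241 had 15, and HPODL_00883 had 18 reads in a CBS11895 retentostat.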

How the data were processed

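Polyadenylated RNA of 16 cultures was sequenced, 2 per group. The authors aligned reads to the RefSeq assembly of the strain with STAR 2.5.3a, counted them with HTSeq and deposited FPKM values, 1 file per culture; SAMtools and edgeR are also named in the submitters' processing notes. Values were scaled with TMM factors computed here (trims of 30% and 5%), and log2(FPKM + 1) was fitted in limma 3.58.1 (R 4.3.3) over all 16 samples with 1 mean per group, for the 5233 genes with a group mean of at least 10 FPKM. Fold changes are on this scale, which understates changes of low genes. P-values were adjusted by the Benjamini-Hochberg method over all genes tested (FDR), with a threshold of 0.05. They rest on how far the 2 cultures of each group lay apart, pooled over all 8 groups into 1 error variance per gene. In this fit every contrast, those between retentostats included, therefore also carries the disagreement of the 2 IMD010 chemostat cultures at 0.1 per h. Whole reads were recovered from the steps of the values (100% of values above 0 within 0.02 of a whole number in 5400 genes) and gave depths of 16522183 to 20898682 reads per sample. The code was tested on simulated data.

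The members were chosen by median-of-ratios scaling, and the members and gene lists were chosen with earlier results of these data known. Named genes were the 12 members with the largest margin, the 6 named members with the highest FPKM per strain and up to 4 members per list. The 3 largest and 3 smallest called changes per contrast and the 3 genes on either side of the threshold were also named. The choice by highest FPKM depends on the number that the authors divided by and does not rank transcript amounts between genes. Others named were chosen after their values were seen. Product names came from the data set of the paper and positions from the RefSeq assembly Hansenula_2. Alternatives covered scaling, pseudocount, low-value filter, replicate block, samples in the fit, gene length, thresholds and each culture left out. Weights by voom, the fit without the IMD010 chemostat group at 0.1 per h, and the rule without that group or without CBS11895 batch were chosen after seeing the data. Tables were handled in Python 3.11.15 with pandas 2.3.3 and numpy 2.4.6, and figures drawn with matplotlib 3.10.9.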

Additional observations from a re-analysis of the deposited data

Results flagged for a closer look

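The rise in retentostat cultures over the chemostat at 0.025 per h differed between the strains for 2 members by the limma test of the difference itself. It was larger in IMD010 than in CBS11895 by 5.24 on the log2 scale for HPODL_03869 (FDR 1.4e-06) and by 4.86 for HPODL_03770 (FDR 0.000115). HPODL_03770 lost this call with a pseudocount of 0.1 (FDR 0.138) and with voom weights (FDR 0.247), and rested on 30 to 34 reads in the CBS11895 retentostats. It passed the low-value filter only through the IMD010 retentostat group, which the test itself uses, so nothing is read from its FDR.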

How the results depend on the processing

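The rule took 74 to 82 genes under its alternatives. The share of all genes called also moved between fits, so the counts below describe the dependence on processing and are no result about the members. Counts of members called moved by over 1.5 times as follows. At an absolute log2 fold change above 2 and FDR under 0.001, strain differences were called for 2 members in retentostats and for 0 at 0.025 per h, at 0.1 per h and in batch; 0.025 against 0.1 per h gave 3 in IMD010 and 6 in CBS11895, and 0.1 per h against batch 19 in IMD010 and 14 in CBS11895. With only the samples of the contrast, strain differences numbered 42 in retentostats, 10 at 0.025 and 0 at 0.1 per h, 0.025 against 0.1 per h in IMD010 gave 0, 0.1 per h against batch in IMD010 23, and the difference in rise 19. Without the IMD010 chemostat group at 0.1 per h, strain differences numbered 25 in retentostats and 19 at 0.025 per h, and differences in rise 23. The difference in rise gave 1 with a pseudocount of 0.1 and 1 with voom weights. Fits that leave out the IMD010 chemostat cultures at 0.1 per h also leave them out of the shared error variance. The part of this in the moved counts was not tested, nor was any other cause.

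Leaving out each culture in turn gave 4 to 6 strain differences in retentostats, 2 to 11 at 0.025 per h, 0 to 36 at 0.1 per h (36 without IMD010 culture 2) and 30 to 35 in batch. It gave 21 to 36 calls for 0.025 against 0.1 per h in IMD010 and 22 to 42 in CBS11895, 46 to 57 for 0.1 per h against batch in IMD010 and 36 to 38 in CBS11895, and 2 to 8 differences in rise. Replicate numbers did not pair the samples (correlations of -0.319 to 0.413 over 28 pairs of groups, 6 above 0.1); with the replicate block, 10 strain differences were called in retentostats and 2 in the rise. Of 192 values of named genes with a culture left out, 40 lost their call and none changed direction. The planned edgeR test on recovered reads was not run, since the deposited unit was FPKM. Low read numbers limit HPODL_03027, HPODL_03241, HPODL_00883, HPODL_03769 and HPODL_03770, and HPODL_00906 in batch.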
